A study of Mus musculus with 89 samples.

Results

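Igf2r, Airn, Slc22a2 and Slc22a3 lie next to each other on mouse chromosome 17 and form an imprinted domain, a stretch of the genome in which the parental origin of an allele decides whether it is transcribed. They are 4 of the 54146 gene rows measured, and were taken by symbol. The members were chosen by the level of Slc22a3 after the loss of both Esrrb and Nr5a2 in 2i/LIF, which was far above that of the control, so the values of −E−N cells in that medium are given below without a test. RNA-seq of 20 libraries of mouse embryonic stem cells (ESCs) was used, with 2 replicates of each of 4 states in serum and LIF (FCS/LIF) and 3 of each in 2i/LIF, in which LIF and a pair of kinase inhibitors stand in for serum. All libraries came from EKOiE ESCs, which lack the endogenous Esrrb gene and carry an Esrrb transgene switched on by doxycycline (Dox). The states were EKOiE kept in 1 µg/ml of Dox (+E+N), the same line deprived of it for 2 days (−E), EKOiE NrKO, in which Nr5a2 is disrupted as well, kept in the same dose (−N), and EKOiE NrKO deprived of it for 2 days (−E−N). The NrKO cells are a derived line, so that its loss of Nr5a2 and other features of the line cannot be told apart, and neither can medium and culture batch. The study describes replicates as independent experiments, while the labels do not say what those of a group share, and p-values measure the spread between these samples.

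Igf2r encodes the large receptor that carries enzymes tagged with mannose 6-phosphate to lysosomes and takes up the growth factor Igf2 for degradation. In most mouse tissues it is transcribed from the maternal allele. Airn is a long non-coding RNA that starts inside Igf2r, runs in the opposite direction on the paternal allele, and is required for the silencing of Igf2r, and in the placenta also of Slc22a2 and Slc22a3, on that allele. Slc22a2 and Slc22a3 encode transporters of organic cations. In undifferentiated ESCs Airn is scarce and Igf2r is transcribed from both alleles. The counts analysed here hold no information on alleles.

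In mm10, Slc22a3 (ENSMUSG00000023828) lies on the minus strand at chr17:12418960-12507704, and Slc22a2 (ENSMUSG00000040966) on the plus strand at chr17:12584132-12628488. Igf2r (ENSMUSG00000023830), on the minus strand, spans chr17:12682406-12769664, and Airn (ENSMUSG00000078247), on the plus strand, chr17:12741311-12860136. The start of Airn is in intron 2 of Igf2r, 28.4 kb from the start of the receptor gene, and the first 28354 bp of Airn run inside Igf2r without sharing an exonic base with it. At its other end, Airn overlaps the span of Mas1 by 19058 bp, again with 0 bp shared between exons. Exons of Slc22a3 and of Plg, on the opposite strand, share 420 bp. The libraries were stranded, but whether the counting used strand is not given in the sources used here, so reads of genes that overlap in antisense may not be told apart with certainty.

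The 250 bp before the start of 3 of the genes are shown because they hold the promoter of each member with a level to compare. They come from RefSeq (GRCm38.p6), whose start sites were used here, and are written along the strand of the gene. The Slc22a3 window is chr17:12507705-12507954 on the minus strand, the Igf2r window chr17:12769707-12769956 on the minus strand, and the Airn window chr17:12741061-12741310 on the plus strand. Capitals mark CAGGTG in Slc22a3 and CACGTG in Igf2r, both forms of the E-box, a short motif bound by helix-loop-helix factors, and some zinc finger factors.
Slc22a3: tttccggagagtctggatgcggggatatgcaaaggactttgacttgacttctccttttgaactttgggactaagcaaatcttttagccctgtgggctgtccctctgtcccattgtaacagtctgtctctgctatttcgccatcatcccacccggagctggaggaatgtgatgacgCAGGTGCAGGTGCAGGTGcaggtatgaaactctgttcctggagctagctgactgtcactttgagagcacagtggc
Igf2r: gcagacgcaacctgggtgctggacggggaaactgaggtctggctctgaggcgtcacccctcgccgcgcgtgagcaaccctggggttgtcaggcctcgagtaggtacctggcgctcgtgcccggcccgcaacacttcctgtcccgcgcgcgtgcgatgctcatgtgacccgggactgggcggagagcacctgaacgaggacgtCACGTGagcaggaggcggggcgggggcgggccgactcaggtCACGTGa
Airn: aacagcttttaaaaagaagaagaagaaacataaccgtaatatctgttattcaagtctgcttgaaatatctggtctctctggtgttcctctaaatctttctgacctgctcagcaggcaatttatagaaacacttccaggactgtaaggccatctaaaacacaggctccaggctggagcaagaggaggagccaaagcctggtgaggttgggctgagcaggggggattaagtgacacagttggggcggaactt
The Igf2r window is rich in G and C (69.2%) and holds 27 CpG dinucleotides, whereas those of Airn (45.6%, 2 CpG) and Slc22a3 (51.2%, 5 CpG) do not stand out from the median window (52.4%, 6 CpG). Slc22a3 carries 3 copies of CAGGTG in tandem, 75, 69 and 63 bases before its start, and 0.247% of all 32851 windows of this length hold 3 or more. Igf2r carries CACGTG at 48 and 7 bases before its start (0.429% of windows hold 2 or more) and CAGGTG once on the opposite strand. AGGTCA, the half-site of many nuclear receptors, occurs once in the window of Igf2r, where it overlaps the CACGTG nearest the start, once in that of Airn, and in 14% of all windows. TATAAA occurs once in that of Airn, on the opposite strand, and in 12.4% of windows. These motifs were searched on both strands and, except for those of Esrrb and Nr5a2, were chosen after the sequences were seen.

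Esrrb and Nr5a2 bind TCAAGGTCA, with T or C as the seventh base. Neither form, on either strand, occurs in the windows of the 4 members, and 0.387% (T) and 0.511% (C) of all windows hold one. For 3 members the match nearest to the start, with 10 bases on each side, is given here with the motif in capitals.
Slc22a3: aaggctgagaTCAAGGTCAccatgtattc
Slc22a2: aaaattaaatTCAAGGTCAatgactcatg
Igf2r: atttatgggtTCAAGGCCAgtctggtcta
That of Slc22a3, at chr17:12498320-12498348, lies 9374 bp into the gene, in an intron, and 78.2% of the protein-coding genes of chromosome 17 have a match at least as close to their start. The match of Slc22a2 (chr17:12597710-12597738, minus strand) lies 13588 bp into the gene, and that of Igf2r (chr17:12767523-12767551) 2131 bp into the gene. Across the domain there were 7.71 matches per 100 kb, against 6.80 on chromosome 17. A match is a run of letters, not evidence of binding.

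The libraries held 36514172 to 45443379 counts in FCS/LIF and 26653035 to 32526534 in 2i/LIF. Esrrb, scaled to 1000000 counts per library (CPM), spanned 279 to 362 for +E+N, 66.1 to 75.4 for −E and 29.4 to 31.7 for −E−N in FCS/LIF. In 2i/LIF these ranges were 506 to 601, 375 to 440 and 104 to 170. The mean TPM of Esrrb in 2i/LIF was 237 for +E+N and 123 for −E, so the size of the fall in −E depends on the scale. Whether the remaining reads come from functional Esrrb RNA was not tested. The paper reports that binding of Esrrb to DNA was lost in this medium after Dox withdrawal. Nr5a2 reads lie largely outside the disrupted exon and check little. Naive pluripotency genes summed to 712 to 749 TPM for +E+N against 138 to 154 for −E−N in FCS/LIF, and to 1206 to 1451 against 595 to 736 in 2i/LIF. In such bulk samples, fewer cells of a type and less RNA per cell cannot be told apart. Calls were made by edgeR's quasi-likelihood test, with limits of 0.01 on the adjusted p and 1.5 on the fold, over all genes that reached 20 counts in every replicate of at least 1 state. Under this filter 3 members were tested in FCS/LIF (Slc22a3, Airn, Igf2r) and 2 in 2i/LIF (Slc22a3, Igf2r). Slc22a3 passed it only through the groups in which it is high, and Airn, in FCS/LIF, only through −E−N, its highest group.

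Slc22a3, an organic cation transporter of broad substrate range, was all but silent in +E+N and −E cells in 2i/LIF and present in both groups that lack Nr5a2. The +E+N libraries held 0, 0 and 3 counts of it, and the −E libraries 0, 3 and 1. The −N libraries held 90, 83 and 68 counts, and the −E−N libraries 271, 266 and 422. Each −N library therefore lay above every +E+N and −E library, and each −E−N library above every −N library. In CPM, the +E+N libraries had a mean of 0.0345 ± 0.0598 and those of −E one of 0.0467 ± 0.0541, against 2.91 ± 0.356 for −N and 10.8 ± 3.02 for −E−N (SD, n = 3).

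The rise of Slc22a3 in −N cells in 2i/LIF passed the test, with a log2 fold change of 6.24 (SE 0.615, edgeR adjusted p = 6.27e-05), the rank of 9 among 14355 genes by fold. Taken over the summed counts, 241 against 3, the depth-scaled ratio was 85.7, with a 95% interval of 29.0 to 418 that covers counting error only. Of the 2 members tested in this comparison, 1 was called (Slc22a3), against 3.65% of all genes. This comparison and that of −E share their +E+N libraries with the contrast by which the members were chosen. With the replicate number as a block, 1115 genes were called in place of 524, and Slc22a3 stayed called. The call held when any of the 12 libraries was left out, with log2 fold changes between 5.66 and 9.39. For −E against +E+N the log2 fold change was 0.41 (SE 1.15, adjusted p = 0.885), a value that rests on 4 against 3 counts and turned negative without +E+N replicate 1 (−0.17), +E+N replicate 2 (−0.08) or −E replicate 2 (−0.82). By edgeR 0 of 2 members were called there, 0 had an unadjusted p under 0.05, DESeq2 called 0, and 1.55% of all genes were called, or 596 genes with the block in place of 223.

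In −E−N cells in 2i/LIF, the values that chose the domain, Slc22a3 had a log2 fold change of 8.14 (SE 0.583) against +E+N, again the rank of 9. Against −E it was 7.73, and against −N 1.90 (SE 0.347). The depth-scaled ratio of summed counts was 314 against +E+N (interval 107 to 1526) and 3.67 against −N (3.18 to 4.24). Slc22a3 reached 14.9% to 25.4% of the TPM level of Igf2r in the −E−N libraries, and 5.38% to 6.59% in the −N libraries.

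In FCS/LIF, in libraries the choice of members did not use, Slc22a3 was detected in every library and was highest in −E−N. The pairs of libraries held 4 and 5 counts (+E+N), 22 and 28 (−E), 8 and 18 (−N) and 75 and 106 (−E−N). The 2 libraries of each depleted state lay above both +E+N libraries, and those of −E−N above all others. In CPM the means were 0.113 ± 0.00721, 0.601 ± 0.109, 0.295 ± 0.142 and 2.33 ± 0.475, in the same order (SD, n = 2).

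Slc22a3 rose in −E−N cells in FCS/LIF, with a log2 fold change of 4.33 (SE 0.411, edgeR adjusted p = 6.54e-05), ranking 2 among 15636 genes by fold. It was also higher in −E−N than in −N (2.95, adjusted p = 0.000444). Both calls held with any single library left out. It was higher in −E−N than in −E (1.95, adjusted p = 0.00393), although this call was lost without either −E library (adjusted p = 0.0598 and 0.0243) or either −E−N library (0.0106 and 0.0478). The rise in −E cells was 2.38 (SE 0.474), with an adjusted p of 0.00909 just inside the limit. That call was lost without either +E+N library (0.0479 and 0.0395), either −E library (0.0280 and 0.0660) or either −E−N library (0.0156 and 0.0158), and in limma on log2 TPM values. In −N cells the log2 fold change was 1.38 (SE 0.527), with an unadjusted p of 0.0281 and an adjusted p of 0.237 in edgeR. The interaction, the −E−N value minus what the sum of both single values gives, was 0.57 (adjusted p = 0.844).

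Of the 3 members tested in FCS/LIF, 1 was called in −E (Slc22a3, against 5.76% of all genes) and 1 in −E−N (Slc22a3, against 18.8%). In −E−N against −E, 2 were called (Slc22a3 and Airn, against 5.05%), and in −E−N against −N 1 was called (Slc22a3, against 10.1%). By edgeR 0 were called in −N, in which 0.173% of all genes were called, 1 had an unadjusted p under 0.05 (Slc22a3) and DESeq2 called 0. For the interaction 0 were called, against 0.032% of all genes, 1 had an unadjusted p under 0.05 (Airn) and DESeq2 called 0. All of these calls were rises, of genes that passed the filter only through groups in which they are high.

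**Figure D1:**
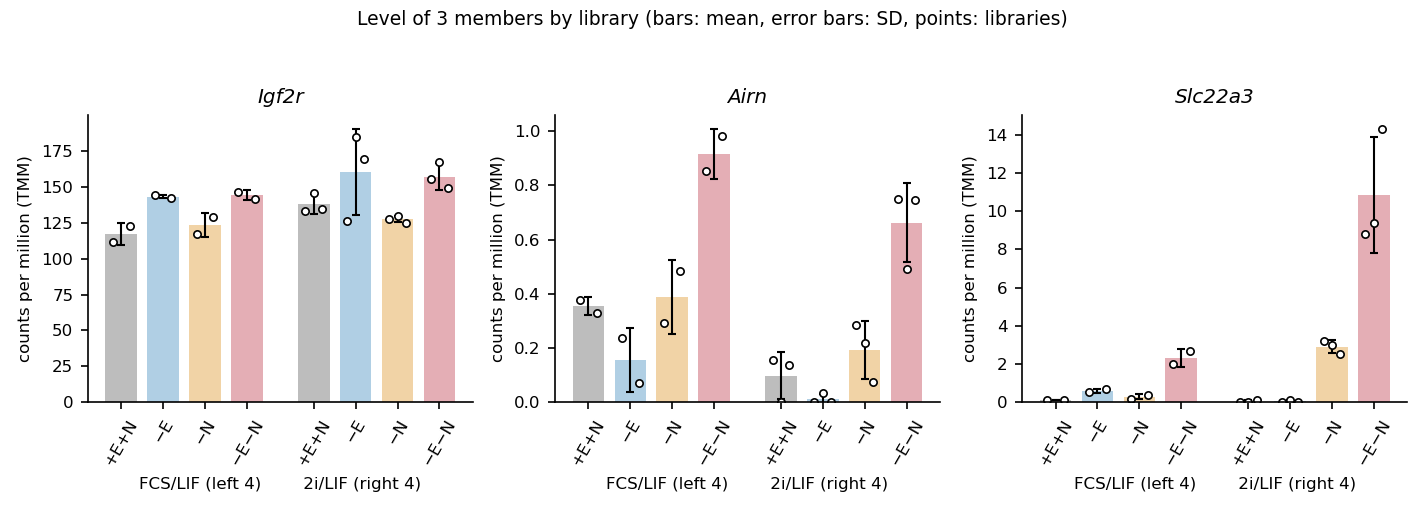
Level of Slc22a3, Airn and Igf2r (vertical axes, TMM-scaled CPM) in the 8 groups of medium and state, with bars for the mean, error bars for the SD and points for the libraries (2 per group in FCS/LIF, 3 in 2i/LIF). Slc22a3 is highest in 2i/LIF −E−N (10.8), Airn in FCS/LIF −E−N (0.917), and Igf2r lies between 117 and 160 in every group.

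The −N value of Slc22a3 was thus 1.38 on the log2 scale in FCS/LIF and 6.24 in 2i/LIF. The difference between these responses, tested in a fit of all 20 libraries that was added after the data were seen, was 4.88 (SE 1.07, unadjusted p = 0.000286, edgeR adjusted p = 0.0199). This test, like that of the −E responses below, shares its 2i/LIF +E+N libraries with the contrast by which the members were chosen. Its p-values are thus not free of that choice. The difference missed the limit of 0.01 in edgeR, whereas DESeq2 gave an adjusted p of 0.000391. With each of the 20 libraries left out in turn, edgeR gave 4.30 to 8.26 (adjusted p 0.00755 to 0.124). Both the largest difference and the 1 call came without 2i/LIF +E+N replicate 3, the only +E+N library in that medium with counts of Slc22a3. By edgeR 0 of 3 members were called for this difference, against 0.743% of all genes, 1 had an unadjusted p under 0.05 and DESeq2 called 1, Slc22a3 in both cases. For the −E responses, which differed by −1.98 for Slc22a3 (adjusted p = 0.529), edgeR called 0 of 3 members, against 1.06% of all genes, 0 had an unadjusted p under 0.05 and DESeq2 called 0.

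Airn, the antisense RNA of the domain, was scarce throughout and highest in −E−N cells in both media. In FCS/LIF its counts were 14 and 14 (+E+N), 10 and 3 (−E), 12 and 22 (−N) and 32 and 39 (−E−N). In 2i/LIF they were 5, 0 and 4 (+E+N), 0, 1 and 0 (−E), 8, 6 and 2 (−N) and 23, 14 and 22 (−E−N). In both media the −E−N libraries lay above all libraries of the other states, while +E+N and −N overlapped. At these depths single libraries with fewer than 10 counts carry a large sampling error.

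Airn was higher in −E−N than in −E cells in FCS/LIF, with a log2 fold change of 2.53 (SE 0.465, edgeR adjusted p = 0.00685). The summed counts were 71 against 13, a depth-scaled ratio of 5.89 (interval 3.23 to 11.6). Airn was in this fit only through −E−N, the group found high, so the call is not free of the filter. This call was lost without either −E library (adjusted p = 0.0230 and 0.0460) or either −E−N library (0.0242 and 0.0599), and in limma on log2 TPM values. Against +E+N, the −E−N value was 1.37 (SE 0.409, adjusted p = 0.0222), not called, with a ratio of 2.64 (1.69 to 4.25). It was called with the filter lowered to 1 count (adjusted p = 0.00595) or with the compared states fitted alone (0.00825). Against −N it was 1.22 (adjusted p = 0.0423). The single losses gave −1.16 in −E (adjusted p = 0.162) and 0.15 in −N (adjusted p = 0.916), neither called, and the interaction was 2.38 (SE 0.663, unadjusted p = 0.0059, adjusted p = 0.325).

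In 2i/LIF, Airn did not reach the filter and has no test in the fit used here. Its mean CPM was 0.0986 ± 0.0859 for +E+N, 0.0118 ± 0.0204 for −E, 0.192 ± 0.108 for −N and 0.663 ± 0.147 for −E−N (SD, n = 3). With the filter lowered to 1 count, the edgeR fit gave log2 fold changes of −2.73 for −E (adjusted p = 0.300) and 0.91 for −N (adjusted p = 0.681), both relative to +E+N. The −E−N value, in the contrast that chose the domain, was 2.66 (SE 0.699), and its depth-scaled ratio of summed counts was 6.44 (3.17 to 14.8). Airn stood at 3.72% to 6.64% of the TPM level of Igf2r in −E−N cells in 2i/LIF, and at 6.72% to 6.85% in FCS/LIF.

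Igf2r, the receptor gene, was abundant in every library and moved little. In FCS/LIF its CPM values were 112 and 123 (+E+N), 144 and 142 (−E), 117 and 129 (−N) and 146 and 142 (−E−N). In 2i/LIF they were 134, 146 and 134 (+E+N), 126, 185 and 170 (−E), 128, 130 and 125 (−N) and 155, 167 and 149 (−E−N). In FCS/LIF the libraries without induced Esrrb lay above those with Dox, and the largest spread was that of −E in 2i/LIF, where replicate 1 stood below the other two.

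In FCS/LIF, the −E−N level of Igf2r was 1.23-fold that of +E+N, a log2 fold change of 0.30 (SE 0.0670, edgeR adjusted p = 0.00655) that passed the limit on p and not the one on fold. The −E value was 0.29 (SE 0.0670, adjusted p = 0.0181) and the −N value 0.07 (adjusted p = 0.673). In 2i/LIF they were 0.22 (SE 0.109, adjusted p = 0.297) and −0.11 (SE 0.110, adjusted p = 0.585), and 0.19, without a test, for −E−N. Igf2r was called in none of the tested comparisons, at a depth of 3386 to 6048 counts per library.

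**Figure D2:**
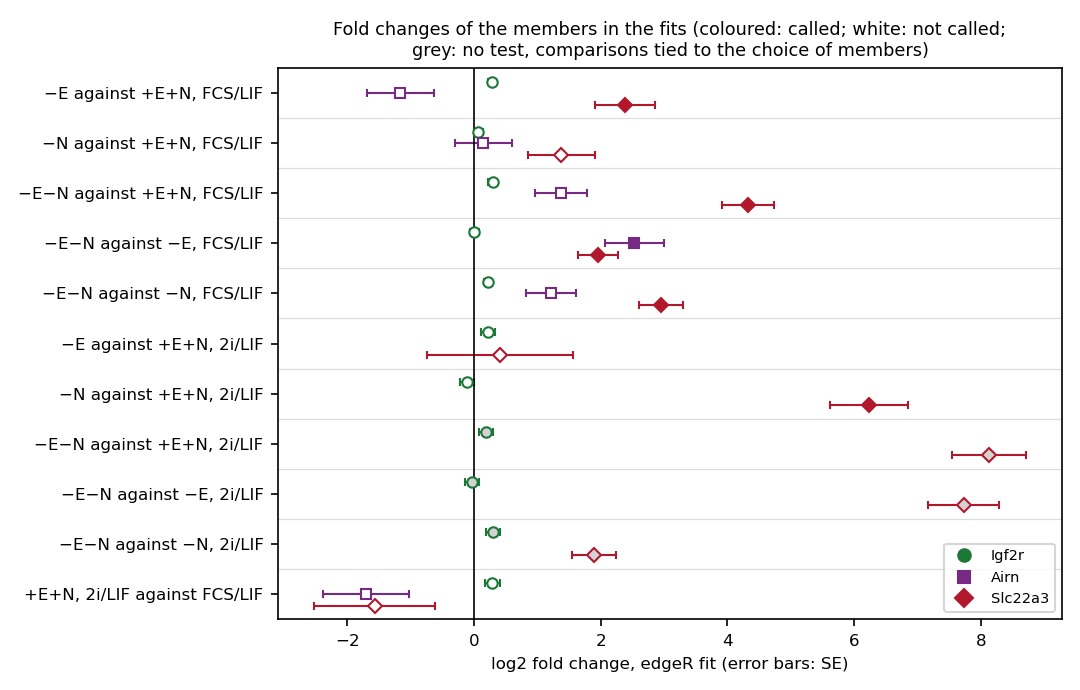
Log2 fold change of the members (horizontal axis, error bars for the SE) in each comparison, coloured where the gene was called, white where it was not, and grey where the comparison is tied to the choice of members and has no test. The Slc22a3 values of 4.33 (FCS/LIF −E−N) and 6.24 (2i/LIF −N) lie far from 0, and those of Igf2r lie within 0.30 of it.

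Slc22a2, the other organic cation transporter of the domain, had 0 counts in all 20 libraries. The limit that a count of 0 allows, 3 counts, lay between 0.0649 and 0.112 CPM per library and at 0.00445 CPM over all 20 libraries, for counting error only.

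By level per length, in TPM, Slc22a3 was ordered from 2i/LIF −E−N (3.83 ± 1.07) over 2i/LIF −N (1.02 ± 0.104) and FCS/LIF −E−N (0.895 ± 0.163), which overlapped, to FCS/LIF −E (0.225 ± 0.0354) and FCS/LIF −N (0.105 ± 0.0495). Apart from that pair, these groups did not overlap. The lowest 3 groups, FCS/LIF +E+N (0.040), 2i/LIF −E (0.0167) and 2i/LIF +E+N (0.0133), rest on few counts, 4 and 5 in the FCS/LIF libraries and 0 to 3 in those of 2i/LIF. The TPM order of Airn ran from FCS/LIF −E−N (1.41 ± 0.0424) and 2i/LIF −E−N (1.12 ± 0.260) down to 2i/LIF −E (0.0167 ± 0.0289). Both −E−N groups lay apart from each other and from the rest in every library, each later pair of neighbours in the order overlapped, and 4 of 8 groups kept their rank when ordered by CPM. Igf2r lay between 15.1 ± 1.53 TPM in FCS/LIF +E+N and 21.0 ± 5.23 in 2i/LIF −E, and neighbours in its order overlapped except FCS/LIF −E (20.1 ± 0.0707) and 2i/LIF +E+N (18.3 ± 1.22).

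Between +E+N cells of the 2 media, edgeR called 0 of the 3 members tested, where 34.7% of all genes were called, 2 had an unadjusted p under 0.05 (Igf2r and Airn) and DESeq2 called 0. In 2i/LIF against FCS/LIF the log2 fold change was 0.29 for Igf2r (SE 0.113, adjusted p = 0.0341), −1.70 for Airn (SE 0.679, adjusted p = 0.0393) and −1.57 for Slc22a3 (adjusted p = 0.168). The FCS/LIF libraries held 28 counts of Airn in all and the 2i/LIF libraries 9, a depth-scaled ratio of 3.30 (1.51 to 7.94). The 2i/LIF libraries compared here also belong to the contrast by which the members were chosen.

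The members are only a few of the genes of this region, in which 28 other annotated genes (20 protein-coding, 8 long non-coding) lie within 500 kb. Of these 12 were tested in FCS/LIF and 10 in 2i/LIF. Mas1, which encodes a receptor for angiotensin peptides and overlaps the far end of Airn in antisense, had 2 counts in both +E+N libraries in FCS/LIF, then 13 to 15 (−E), 4 to 5 (−N) and 24 to 33 (−E−N). Its groups without Dox thus lay above those with Dox. Mas1 passed the count filter only through −E−N, its highest group in both media. Mas1 rose in −E−N (3.79, SE 0.447, edgeR adjusted p = 0.000213) and in −E (2.67, adjusted p = 0.00703), the second a call that was lost when any of the 8 libraries was left out, with adjusted p between 0.0106 and 0.0425, and in DESeq2 (0.0530). In 2i/LIF it spanned 1 to 11 counts (+E+N), 4 to 10 (−E), 7 to 48 (−N) and 40 to 157 (−E−N), and the −N value of 2.53 was not called (adjusted p = 0.0606).

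Among the other neighbours, Sod2, the mitochondrial superoxide dismutase, fell by 1.11 on the log2 scale in −E−N cells in FCS/LIF. Agpat4, an acyltransferase of phospholipid synthesis, rose in −N cells in 2i/LIF (0.94, adjusted p = 0.0042). The last call was lost without +E+N replicate 1 or 2 (0.0161 and 0.0244) or −N replicate 2 or 3 (0.0175 and 0.0165). Counted over the neighbours tested, FCS/LIF had 2 of 12 called higher and 0 lower for −E, 0 for −N (4 at an unadjusted p under 0.05, 0 by DESeq2), and 2 higher and 1 lower for −E−N. The shares of all genes called there were 5.76%, 0.173% and 18.8%. For 2i/LIF, edgeR gave 0 of 10 for −E (2 at an unadjusted p under 0.05, 0 by DESeq2) and 1 higher for −N, against 1.55% and 3.65% of all genes. Their median log2 fold change in −E−N in FCS/LIF was −0.12, beside 0.00 over all genes. Acat2 (0.99) was higher and Agpat4 (−2.26) lower in +E+N cells in 2i/LIF than in FCS/LIF.

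**Figure D3:**
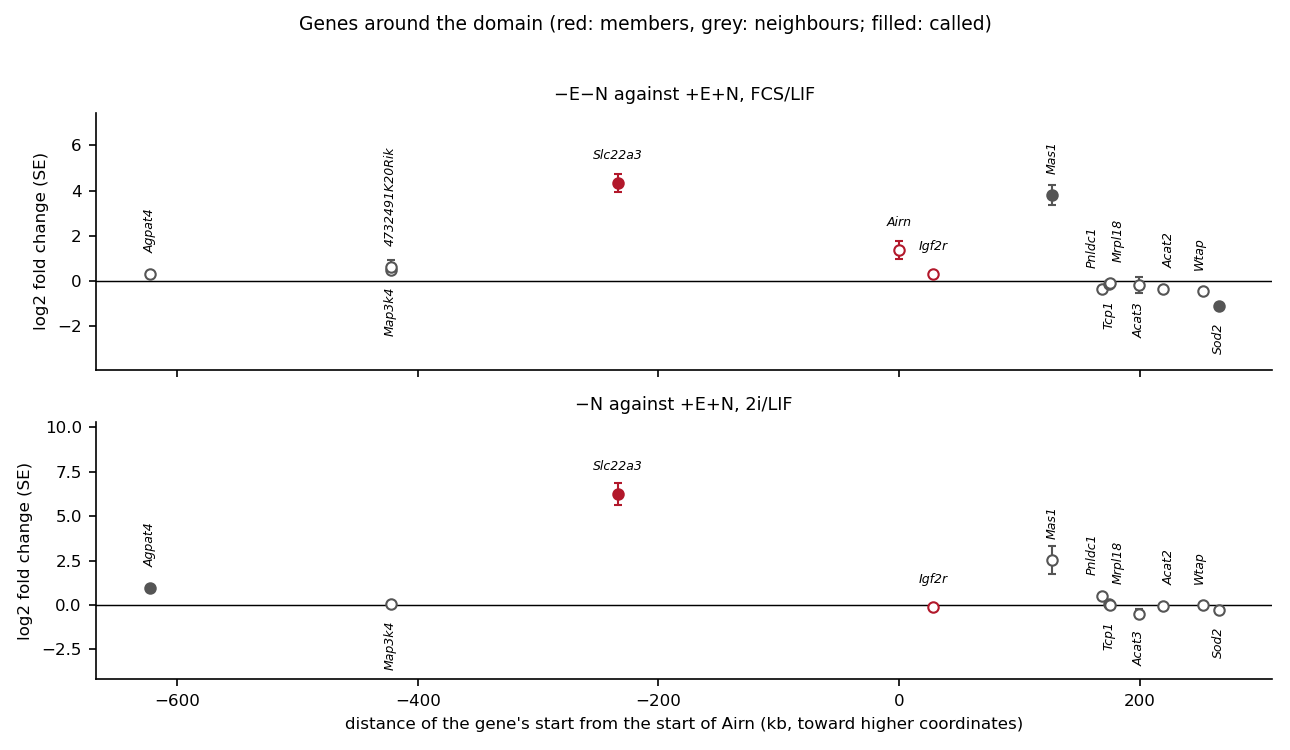
Log2 fold change (vertical axes, error bars for the SE) of members in red and neighbours in grey against the distance of each gene's start from that of Airn in kb, for −E−N against +E+N in FCS/LIF (top) and −N against +E+N in 2i/LIF (bottom), with called genes filled. Slc22a3 (4.33 and 6.24) stands above the neighbours in both plots, and Mas1 (3.79) is next to it at the top. A gene whose start lies far outside this range is not drawn.

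Igf2, the growth factor that Igf2r removes, and H19, the non-coding RNA that shares its enhancers, were followed within a list of 19 genes of the mannose 6-phosphate and IGF pathways. The mean CPM of Igf2 was 331 (+E+N), 395 (−E), 600 (−N) and 966 (−E−N) in FCS/LIF, and 0.784, 1.07, 63.2 and 181 in 2i/LIF. That of H19 was 212, 304, 975 and 1731 in FCS/LIF, and 1.54, 3.86, 245 and 895 in 2i/LIF. As with Slc22a3, both groups that lack Nr5a2 lay above both that keep it in 2i/LIF. In −N cells in 2i/LIF, Igf2 rose by 6.32 (SE 0.234, edgeR adjusted p = 3.06e-08) and H19 by 7.30 (SE 0.354, adjusted p = 2.65e-07) on the log2 scale. The third of the 17 list genes called there was Irs2 (0.91), an adaptor of the insulin and IGF receptors, whose call was lost without +E+N replicate 2 (0.0148) or 3 (0.0135) or −N replicate 1 (0.0147) or 2 (0.0131). The list's median was 0.04, beside 0.00 over all genes, of which 3.65% were called.

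In −E−N cells in FCS/LIF, 9 of the 19 list genes were called higher and 0 lower, with a median of 0.60 beside 0.00 over all genes. Those with the largest fold were H19 (3.03), the IGF-binding proteins Igfbp6 (2.59) and Igfbp3 (1.79), and Irs2 (1.82). The call of Igfbp6 was lost without −E−N replicate 2 (adjusted p = 0.0113). Igf2 (1.55), named after its value was seen, was also among them, as was Igf1r (0.84), the signalling receptor of both IGFs. In −E 2 were called higher (Igfbp3 1.00, and Irs2 0.95, the latter not without −E replicate 2, adjusted p = 0.0146) and in −N 1 (H19 2.20), the latter not without either +E+N library (0.0265 and 0.0190), either −E−N library (0.0150 and 0.0151) or −N replicate 2 (0.0121). In −E cells in 2i/LIF edgeR called 0 of 17, against 1.55% of all genes, with 4 at an unadjusted p under 0.05 and 2 called by DESeq2. Between +E+N cells of the media, where 34.7% of all genes were called, 3 were higher and 9 lower in 2i/LIF. Igf2 (−8.65) and H19 (−7.04) were among the latter. M6pr, the smaller mannose 6-phosphate receptor, was called in none of the comparisons with +E+N.

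**Figure D4:**
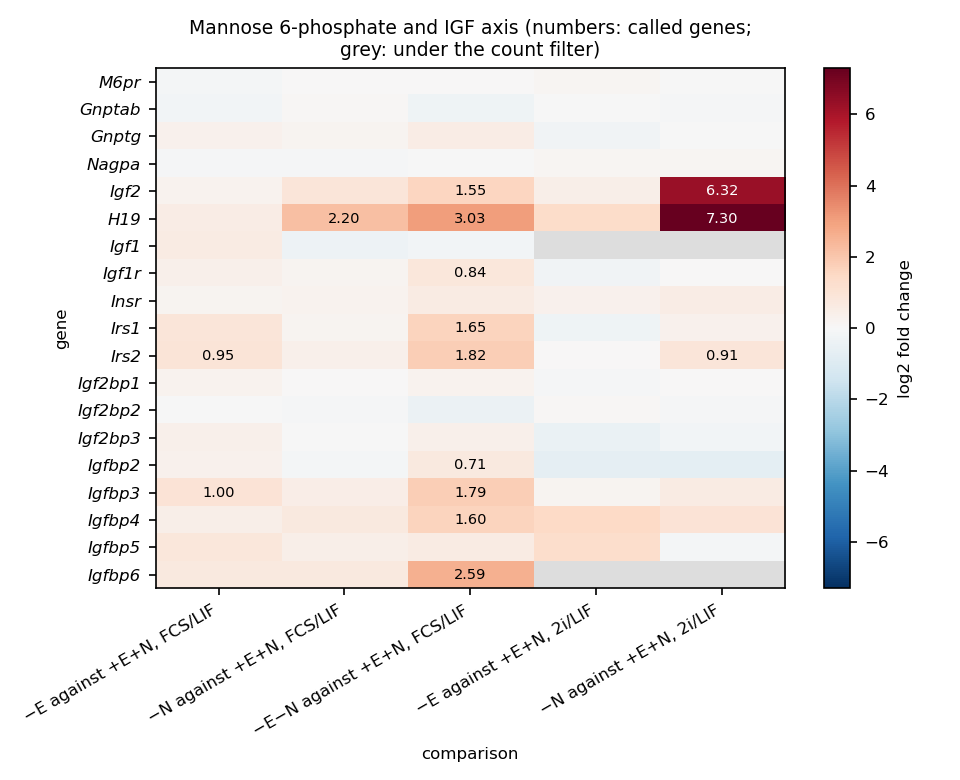
Log2 fold change (colour scale) of the 19 genes of the mannose 6-phosphate and IGF list (rows) in each comparison (columns), with the value printed for called genes and grey for genes under the count filter. The largest rises are those of H19 (7.30) and Igf2 (6.32) in −N cells in 2i/LIF.

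Other organic ion transporters moved in both directions. Of 10 tested in FCS/LIF, 2 were higher and 1 lower in −E−N by the test, with a median of 0.20 beside 0.00 over all genes. The shares of all genes called in FCS/LIF were 18.8% (−E−N), 5.76% (−E) and 0.173% (−N), and in 2i/LIF 1.55% (−E) and 3.65% (−N). Slc22a15 (2.15) and Slc22a23 (1.47), lesser-known members of the Slc22 family, rose, and Slc47a1, an exporter of organic cations, fell by 3.12. The call of Slc22a23 was lost without +E+N replicate 1 (adjusted p = 0.0281) or either −E−N library (0.0167 and 0.0457), and that of Slc22a15 without these (0.0150, 0.0111 and 0.0433) or either −E library (0.0107 and 0.0102). Slc47a1 was also the 1 called gene in −E, lower by a log2 fold change of −2.97 in FCS/LIF and −1.27 in 2i/LIF, and edgeR called 0 in −N in FCS/LIF, with 1 at an unadjusted p under 0.05 and 0 called by DESeq2. The 2i/LIF −E call was lost without +E+N replicate 2 (0.0153) or 3 (0.0155) or −E replicate 1 (0.0128) or 2 (0.0149). In −N cells in 2i/LIF, 0 of 10 were called higher and Slc29a4, a transporter of monoamines, fell by 0.92 (adjusted p = 0.000538).

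Of 23 genes of imprint maintenance and silencing, −E−N cells in FCS/LIF had 2 called higher and 6 lower, with a median of −0.19 beside 0.00 over all genes. The largest were Tet2 (−2.20) and Tet1 (−1.73), which oxidise methylated cytosine, Zfp57 (−2.07), a zinc finger protein that guards methylated imprints, and Pcgf5 (1.42), a Polycomb subunit. In −E 3 were called lower (Zfp57 −1.56, Tet2 −1.30, Tet1 −0.63), and the call of Tet1 was lost without either +E+N library (adjusted p = 0.0195 and 0.0167) or either −E library (0.0193 and 0.0649). In −N edgeR called 0, with 8 at an unadjusted p under 0.05 and 1 called by DESeq2. In 2i/LIF 2 were called higher in −E, the de novo methylation genes Dnmt3l (1.58) and Dnmt3a (0.61), and 2 in −N, Dppa3 (2.08), which protects maternal methylation after fertilisation, and Dnmt3b (0.79). The call of Dnmt3a in −E was lost in 8 of 12 fits with 1 library left out, and that of Dppa3 in −N without +E+N replicate 2 (0.0160) or 3 (0.0150). Of all genes, 18.8% (−E−N), 5.76% (−E) and 0.173% (−N) were called in FCS/LIF, and 1.55% (−E) and 3.65% (−N) in 2i/LIF. In neither medium was the level of DNA methylation measured.

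Markers of other cell types moved beside the members. Of all genes, 18.8% were called in FCS/LIF −E−N and 5.76% in FCS/LIF −E. In 2i/LIF the shares were 1.55% in −E and 3.65% in −N. All 8 naive pluripotency genes were called lower in FCS/LIF −E−N and 7 of them in −E, while 2i/LIF had 1 in −E (Nr0b1) and 2 in −N (Prdm14 and Tbx3). These calls were lost in 3 of 12 (Nr0b1, Prdm14) and 5 of 12 (Tbx3) fits with 1 library left out. Of 10 trophectoderm and placenta markers, 8 were called higher in −E−N in FCS/LIF, their summed TPM being 87.9 to 103 in +E+N and 228 to 304 in −E−N. In 2i/LIF 2 of 7 tested were called higher in −N (Krt7 2.26 and Plac1 5.83), with a summed TPM of 34.0 to 44.7 in +E+N, 39.5 to 40.8 in −N and 79.0 to 120 in −E−N, and Prl3d1, a hormone of trophoblast giant cells, was at 0 in all 2i/LIF groups. The call of Plac1 was lost without +E+N replicate 2 (adjusted p = 0.0108). Of the other marker lists, those of formative and primed epiblast (3 higher and 2 lower of 7), neural cells (3 and 1 of 6), primitive endoderm (1 and 1 of 8) and mesoderm (1 and 0 of 4) had called genes in −E−N in FCS/LIF. The counts of primitive endoderm and mesoderm lie near the share of 18.8% over all genes. In 2i/LIF −N, 2 of 5 formative and primed genes were called higher (Lef1 3.16 and Dnmt3b 0.79), the list's summed TPM being 30.6 to 36.8 for +E+N, 54.6 to 60.7 for −N and 78.6 to 96.4 for −E−N. Of the two-cell-like genes, edgeR called 0 of 5 in −E−N in FCS/LIF, with 0 at an unadjusted p under 0.05 and 0 called by DESeq2, and the summed TPM was 9.62 to 16.2 for +E+N and 14.8 to 17.8 for −E−N. In 2i/LIF their summed TPM was highest in −E−N, and −N overlapped −E, with 3.41 to 4.67 for +E+N, 4.76 to 10.2 for −E, 9.73 to 24.3 for −N and 35.8 to 95.8 for −E−N. The −N median there was 2.06 on the log2 scale beside 0.00 over all genes, and edgeR called 0 of 5, with 4 at an unadjusted p under 0.05 and 2 called by DESeq2. In −E−N the median was 3.91, without a test. The part of such cells in the values of Slc22a3 and Airn was not tested.

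The levels of the 3 detected members varied over the 20 libraries in different ways. In log2(CPM + 0.5), Airn and Slc22a3 had a Pearson r of 0.655 (0.818 within media), Igf2r and Slc22a3 0.243, and Igf2r and Airn −0.0666. These are descriptions over libraries of 8 groups and include the libraries by which the members were chosen. The genes most like Slc22a3 were Gjb2 (0.968), which encodes a gap junction protein, Ptprm (0.967), a receptor phosphatase, Gpx8 (0.952), a peroxidase of the endoplasmic reticulum, Lgr5 (0.950), a receptor for R-spondins, and Tmem150a (0.950), a membrane protein. Among the lowest were Slc29a4 (−0.960) and Nrg2 (−0.948).

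**Figure D5:**
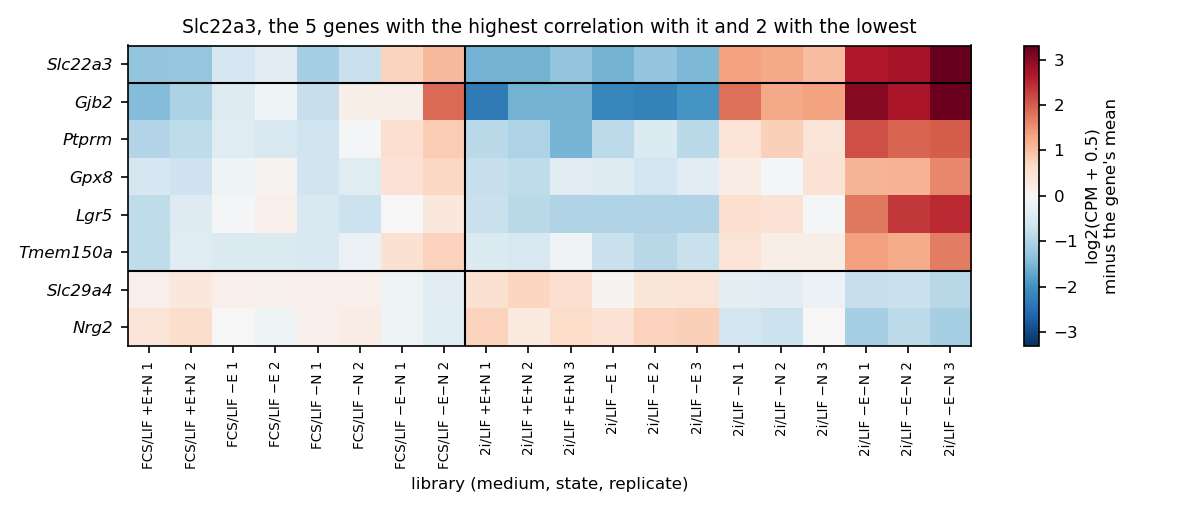
Log2(CPM + 0.5) minus the mean of each gene (colour scale) in the 20 libraries (columns) for Slc22a3, the 5 genes with the highest correlation with it and 2 of those with the lowest (rows). Gjb2 (r = 0.968) and Slc22a3 are both highest in 2i/LIF −E−N, where Slc29a4 (r = −0.960) is low.

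Gjb2 rose in −E−N cells in FCS/LIF (3.07) and in −N cells in 2i/LIF (4.41), as did Ptprm (2.39 and 2.73). Lgr5 rose in −N cells in 2i/LIF (3.92), and Gpx8 (1.30) and Tmem150a (1.25) in −E−N cells in FCS/LIF. These genes were picked by their likeness to Slc22a3 over the same libraries. Rises where Slc22a3 rises thus follow from the choice and are no separate evidence. Gjb2 spanned 112 to 433 counts in FCS/LIF −E−N. Lgr5 held 12 to 26 counts in 2i/LIF −N and passed the filter there only through −E−N (85 to 146). For Airn the highest were Rbbp7 (0.920), a histone-binding subunit of several chromatin complexes, Bcl9l (0.905), Tmem37 (0.904), Zfp358 (0.889) and Maml1 (0.884), and the lowest Pias2 (−0.908), Gm17322 (−0.900) and Dppa2 (−0.890). For Igf2r they were Abcd4 (0.856), Zscan26 (0.848), Pak1 (0.805), Tex15 (0.795) and Emilin2 (0.789), and the lowest Abce1 (−0.878), Tuba1b (−0.859) and Hspd1 (−0.857). In log2 TPM the last 3 stood at −0.373, −0.492 and −0.455, so that their place depends on the scale.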

How the data were processed

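Poly-A selected RNA from 20 libraries (8 in FCS/LIF, 12 in 2i/LIF) was analysed. The 69 ChIP-seq samples of the series were not analysed here. Reads of stranded libraries, sequenced from both ends, were mapped by the authors to mm10 with STAR, and RSEM gave the deposited expected counts per gene, which are not normalized. The deposited TPM values were computed by the authors with RSEM. The versions and the strand setting are not given in the sources used here.

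Counts were rounded, 92 ERCC rows (0 counts) were set aside, and edgeR 4.0.16 (R 4.3.3) was fitted to the 4 states of each medium at once (TMM, quasi-likelihood test, Benjamini-Hochberg adjustment). Comparisons between media used 1 fit of all 20 libraries (16147 genes) as 8 groups. A gene was tested where every replicate of some state reached 20 counts, and called with an adjusted p under 0.01 and a fold over 1.5, or with no fold limit for the interaction and the differences of responses. CPM used the TMM-scaled totals. Intervals of ratios are exact and binomial, given the summed counts. Replicates differed by more than sampling noise in each of 16 pairs (chi-square per degree of freedom 4.28 to 28.3).

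Same-numbered libraries in 2i/LIF deviated together for −E against +E+N (r of 0.483, 0.187 and 0.381) and for −N against +E+N (0.572, 0.170 and 0.473), so there the number pairs them, from the data and not from the labels. Promoter windows and genome were from RefSeq (GRCm38.p6), gene positions from GENCODE vM21. All 4 members had a promoter entry.

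The members and gene lists were chosen with earlier results of these data known. Named were the members, the 5 genes most and 3 least like each, all neighbours within 500 kb, and of a list the called genes, up to 4 with the largest fold. A few items that this rule covers are not reported here. Cell type markers and genes named after their values were seen fall outside this rule. Alternatives were DESeq2 1.42.0, its size factors, other filters, a replicate block, limma 3.58.1 on log2 TPM values with 1 or 0.1 added, the compared states alone, all 20 libraries, other limits and leaving out each library.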

Additional observations from a re-analysis of the deposited data

Results flagged for a closer look

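The responses to a loss were compared between media by a difference of 2 fold changes (2i/LIF minus FCS/LIF, all 20 libraries in 1 edgeR fit), a test added after the data were seen. None of the members passed it, and of all genes 1.06% did for −E and 0.743% for −N. In the lists of the IGF axis, transporters, silencing machinery and neighbours, 5 genes passed the limit of an adjusted p under 0.01. The −N response was larger in 2i/LIF by 5.45 on the log2 scale for Igf2 (SE 0.388, adjusted p = 1.63e-06) and by 5.09 for H19 (SE 0.459, adjusted p = 1.28e-05). Slc22a3 had a difference of 4.88 in the same direction (adjusted p = 0.0199), but its low 2i/LIF +E+N libraries belong to the contrast that chose the members. For −E the difference was 1.01 for Dnmt3a (adjusted p = 0.00103), 1.20 for Zfp57 (adjusted p = 0.000571) and 1.68 for Slc47a1 (adjusted p = 0.00655). Zfp57 and Slc47a1 fell in −E cells in FCS/LIF, so their positive differences do not mean a stronger response in 2i/LIF. The call of Slc47a1 was lost in 10 of 20 fits with 1 library left out, the libraries being each of +E+N and −E in either medium other than 2i/LIF −E replicate 1, and 2i/LIF −N replicate 2. All 20 fits gave 1.45 to 1.86 (adjusted p 0.00486 to 0.0555). The call of Dnmt3a was lost without FCS/LIF −E replicate 2 (adjusted p = 0.0113). Among the cell type markers, 6 of 8 naive pluripotency genes (Zfp42, Klf4, Tfcp2l1, Tbx3, Klf2, Prdm14) had a −E log2 fold change higher in 2i/LIF by 1.03 to 1.69. Those other than Prdm14 were called lower in −E cells in FCS/LIF, so these differences are not stronger responses in 2i/LIF. Lama1, a primitive endoderm gene, had a lower −E log2 fold change in 2i/LIF (−1.67). Lef1, a formative and primed epiblast gene, had a higher −N log2 fold change there (3.21). With 1 library left out, the call of Prdm14 was lost in 14 of 20 fits, those of Tbx3 and Lama1 in 3 and that of Klf2 in 2.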

How the results depend on the processing

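Of 824 recomputed fold changes of the members, 754 were counted as the same. In tested comparisons this meant the same direction and side of the limits. In comparisons without a test it meant a change smaller than the pooled SD between replicates of log2(CPM + 0.5). The count of called members moved from the value in the report in these cases. For −E in FCS/LIF (1), an adjusted p under 0.05 without a fold limit gave 2, limma on log2(TPM + 1) or log2(TPM + 0.1) and all 20 libraries 0, and leaving out a library 0 to 1. For −E−N against +E+N (1), an adjusted p under 0.05 gave 3, and a filter of 1 count or the compared states alone 2. For −E−N against −N (1), the limit of 0.05 gave 3. For −E−N against −E (2), limma gave 1 (+ 1) and 0 (+ 0.1), all 20 libraries 1, and leaving out a library 0 to 2. Between media (0), the limit of 0.05 gave 2. For the −N responses (0), the limit of 0.05, the filter of 1 count, DESeq2 and limma (+ 0.1) gave 1, and leaving out a library 0 to 1. These fold changes turned their sign, none of them called. Igf2r in −E−N against −E was −0.0051 with DESeq2 or its size factors, −0.00092 with the compared states and −0.0450 to 0.0151 with a library left out. Airn in −N in FCS/LIF was −0.0327 (+ 1) and −0.0800 (+ 0.1) in limma and −0.268 to 0.452 with a library left out. Leaving out a library gave −0.00315 to 0.140 for Igf2r in −N and −0.131 to 0.0110 for its interaction in FCS/LIF, −0.82 to 3.55 for Slc22a3 in −E in 2i/LIF, −0.209 to 0.0477 for Igf2r and −3.24 to 1.40 for Slc22a3 in the difference of −E responses. For Airn that difference was 0.0484 in limma (+ 1). The cause was not tested.

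With the replicate number as a block, Slc22a3 in FCS/LIF −E was 2.39 (adjusted p = 0.00208) and in 2i/LIF −N 6.26 (adjusted p = 7.15e-06), and it changed no call of a member. In FCS/LIF the r of same-numbered libraries spanned 0.0361 to 0.360. The lowest was that of −E with +E+N and the highest that of −N with +E+N. Pairing by number is thus uncertain in this medium and cannot be set aside for −N. The block moved the called genes there from 27 to 305 in −N, 5 to 40 in the interaction, 901 to 1296 for −E and 790 to 1265 for −E−N against −E. Over the alternatives other than leaving out a library, these counts spanned 0 to 548, 0 to 242, 379 to 3022 and 61 to 3251.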
